A study of Homo sapiens with 2 samples.

Results

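The solute carriers (SLC genes) described here are the transporter genes with a clear array signal in HepG2 cells, apart from the families known mainly for amino acids, glucose, bile acids, fatty acids, iron and zinc export. A gene was taken where its symbol was SLC followed by a family number, a letter and a number, where its family was not SLC1, SLC2, SLC3, SLC6, SLC7, SLC10, SLC11, SLC27, SLC30, SLC36, SLC38, SLC40, SLC43 or SLC51, and where its brightest probe set of its own reached a log2 value of 6 or more on either array. A probe set is a group of short oligonucleotides on the array that gives 1 value and can match 1 or several transcripts. A probe set of its own is one that the annotation assigns to that gene only. By this rule 131 genes were selected, of 250 SLC genes of these families and 19775 genes in all with a probe set of their own.

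HepG2 is an established human hepatocellular carcinoma cell line, and Padma 28 is a preparation of many herbs from Tibetan medicine. In the study, the cells received either an ethanolic Padma 28 extract at 218 μg/ml or the solvent alone, 0.9% ethanol (EtOH), each for 18 h. Both groups were kept in medium with fetal calf serum. The cells of 3 cultures per treatment were pooled before RNA was extracted, and each pool was read on 1 array (Affymetrix U133 Plus 2.0), to see which transcripts differ after the extract. Since each treatment had 1 array, neither a test nor a spread across samples is available, and each difference stands between 2 arrays with no replicate check. In pooled RNA, fewer cells with a transcript and less of it per cell cannot be told apart.

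SLC carriers are membrane proteins that move ions, nutrients, metabolites, vitamins and drugs across the plasma membrane or the membranes of organelles, driven by gradients of the substrate itself or of sodium, protons or another coupled ion. In hepatocytes they take up organic anions and cations from the blood, supply mitochondria with phosphate, nucleotides and carboxylates, and bring nucleotide sugars into the Golgi apparatus. The genes are grouped into families by sequence, and members of 1 family can carry unlike substrates.

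The array values are log2 expression values. Differences were taken as Padma 28 minus EtOH, so that 1 means 2-fold and 0.585 means 1.5-fold. The most frequent value was 2.35 on the Padma 28 array and 2.25 on the EtOH array, and values below 4.35 (Padma 28) or 4.25 (EtOH), 2 log2 units above it, were taken as background. Of the 131 genes, 127 reached 6 on both arrays. SLC22A7, SLC66A3 and SLC25A29 reached it with Padma 28 only and SLC26A3 with EtOH only, so these 4 were selected through the array on which they were higher. SLC26A3 with Padma 28 was the single value among the selected genes that lay below the background limit. Just inside the rule were SLC25A42, with 6.29 with Padma 28 and 6.30 with EtOH, and SLC33A2, with 6.27 with Padma 28 and 6.47 with EtOH. Just outside it were SLC4A1, the anion exchanger of red cells (5.82 with Padma 28, 5.88 with EtOH), SLC23A1, an ascorbate carrier (5.83 with Padma 28, 5.19 with EtOH), SLC41A2 (5.72 with Padma 28, 5.43 with EtOH) and SLC25A35 (5.51 with Padma 28, 5.53 with EtOH).

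Most of the 131 transporters had similar values on both arrays. Past 2-fold, 4 were higher after Padma 28 (SLC22A7, SLC66A3, SLC44A2 and SLC17A2) and 2 were lower (SLC13A3 and SLC26A3). These are 3.05% and 1.53% of the transporters. Over all 19775 genes, 0.875% were higher and 0.384% lower by that much, and over the 9333 genes that reached 6 on either array, 1.4% were higher and 0.664% lower. At 1.5-fold, 11 transporters were higher (8.4%) and 5 were lower (3.82%), beside 6.13% higher and 2.78% lower over those 9333 genes, and 115 lay within 1.5-fold. The median difference of the transporters was 0.06, with quartiles of -0.15 and 0.25 and a range of -2.38 to 1.48, and 77 of them (58.8%) lay above 0. Over the 9333 genes the median was 0.07, with quartiles of -0.10 and 0.26, and 59.8% lay above 0. The median over all probe sets was -0.025. The arrays had been normalized to each other by quantiles, so this value cannot show whether the whole array shifted. Some of the genes had been picked out in earlier work on these arrays for their differences, so the counts describe the transporters and are read only against the shares over all genes. Both of the 2 lower ones, SLC13A3 and SLC26A3, were already listed in the study among its most down-regulated genes on these arrays. The share of lower transporters past 2-fold thus rests on genes known beforehand. Of the higher ones, the study names SLC17A2 among the molecules of the networks it built from genes past 2-fold.

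**Figure D1:**
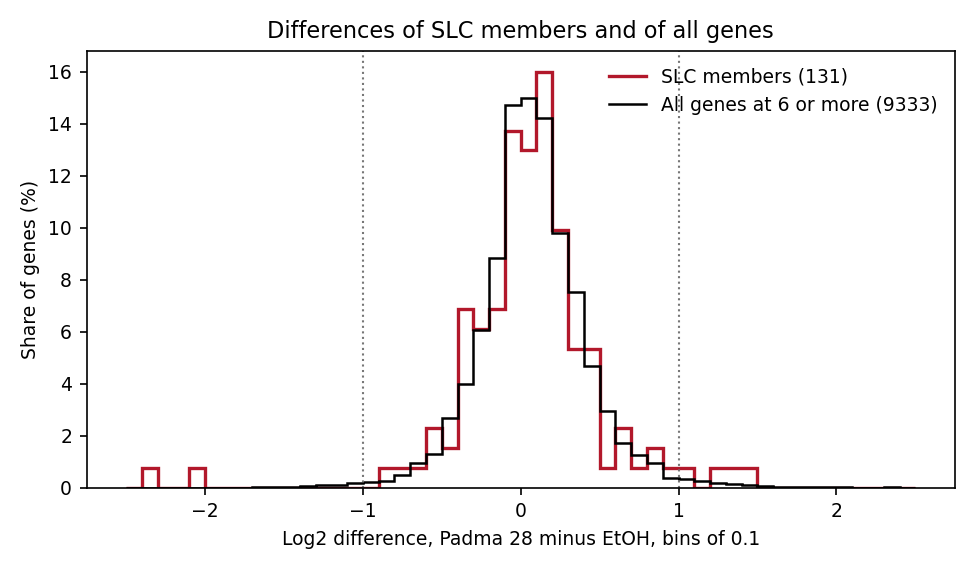
Share of genes (y axis, percent) by log2 difference Padma 28 minus EtOH (x axis, bins of 0.1) for the 131 selected SLC genes and for the 9333 genes at 6 or more on either array, with 1 array per treatment. Both distributions peak near 0, with medians of 0.06 and 0.07, and 12 of the 9333 genes lie outside the plotted range.

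Of the 52 SLC genes in the left-out families that reached 6 on either array, 1 was higher (1.92%) and 4 were lower (7.69%) by more than 2-fold, beside 1.4% and 0.664% over all genes at that level. Their median was 0.06, with quartiles of -0.27 and 0.31.

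The lowest difference was that of SLC13A3, the sodium-coupled dicarboxylate transporter that takes up succinate and α-ketoglutarate. Its brightest probe set had 8.35 with Padma 28 and 10.73 with EtOH, a difference of -2.38 or 5.19-fold lower after Padma 28. A second probe set had 6.90 with Padma 28 and 9.20 with EtOH (-2.30), and another had 5.17 with Padma 28 and 6.86 with EtOH (-1.68). All 3 probe sets above background on both arrays were thus lower with Padma 28, and the remaining 3, all below background, had differences of -0.63, -0.06 and -0.02. The related citrate transporter SLC13A5 had 11.65 with Padma 28 and 11.90 with EtOH, a difference of -0.25, and SLC13A1 and SLC13A2 were below background on both arrays.

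SLC26A3, an exchanger of chloride for bicarbonate known from the intestinal epithelium, had 3.93 with Padma 28 and 6.01 with EtOH. Since the value with Padma 28 was below the background limit, the gene was at least 3.17-fold lower after Padma 28, taken against that limit. Its second probe set was below background on both arrays, with 2.61 with Padma 28 and 2.65 with EtOH. The signal with EtOH was just at the level that the selection required, and no further probe set above background bears on it.

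Among the higher genes, SLC22A7, an organic anion transporter of the liver (OAT2), had 7.03 with Padma 28 and 5.55 with EtOH, a difference of 1.48 or 2.79-fold. The next brightest probe set differed by 0.17 only, with 5.72 with Padma 28 and 5.54 with EtOH. This gap of 1.31 between 2 probe sets above background on both arrays was the widest among the selected genes. A dimmer probe set had 5.70 with Padma 28 and 4.11 with EtOH, which is at least 2.73-fold. The 2 other probe sets of SLC22A7 were below background on both arrays (0.28 and 0.01).

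SLC44A2, a choline transporter-like protein, had 9.99 with Padma 28 and 8.77 with EtOH, a difference of 1.23 or 2.34-fold. Its second probe set had 8.52 with Padma 28 and 7.22 with EtOH (1.30), so that both were more than 2-fold higher. SLC66A3 had 6.19 with Padma 28 and 4.84 with EtOH (1.35, 2.55-fold), while its 2 other probe sets lay below background on both arrays. SLC17A2, of the family of sodium-coupled phosphate transporters, had 7.32 with Padma 28 and 6.27 with EtOH (1.05, 2.07-fold) on its single probe set. Thus SLC13A3 and SLC44A2 were past 2-fold on a second probe set above background on both arrays. SLC22A7 was past 2-fold on one that passed the limit with Padma 28 only, but differed by 0.17 on its next brightest. For SLC26A3, SLC66A3 and SLC17A2 no second reading above background was at hand.

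**Figure D2:**
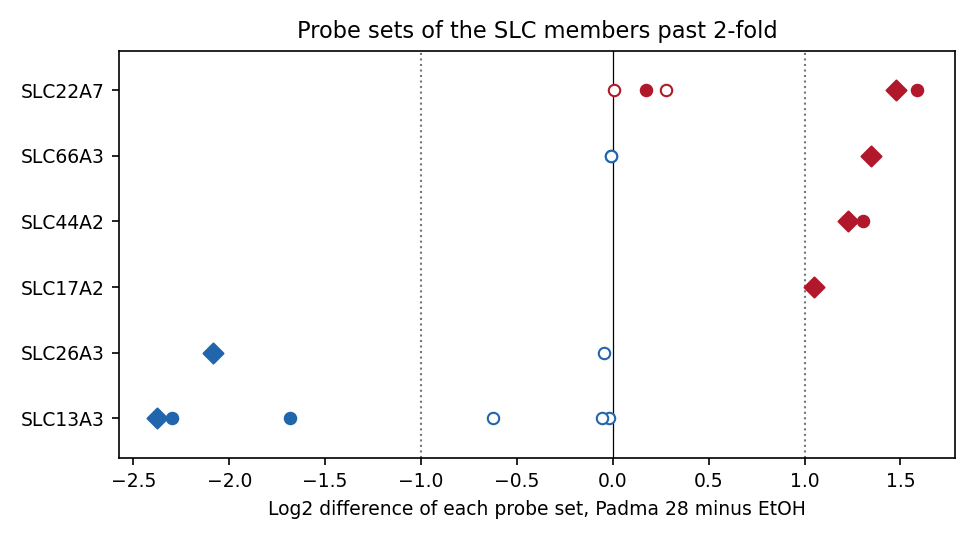
Log2 difference Padma 28 minus EtOH (x axis) of every probe set of the 6 transporters more than 2-fold apart, 1 row per gene. Diamonds are the brightest probe set and circles the others, open ones lie under the background limits, and red and blue mark higher and lower with Padma 28. All filled symbols of SLC13A3 lie below -1.5 and both of SLC44A2 lie above 1.

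Between 1.5-fold and 2-fold, 7 transporters were higher and 3 lower after Padma 28. Of the higher ones, 4 were mitochondrial carriers, described with their family below. SLC67A1 (older symbol SLC22A18), an imprinted gene, had 7.08 with Padma 28 and 6.25 with EtOH (0.83) on 1 probe set. SLC66A1, which exports basic amino acids from lysosomes, had 8.49 with Padma 28 and 7.76 with EtOH (0.73), with a difference of 0.58 on its second probe set. SLC67A2 had 8.22 with Padma 28 and 7.62 with EtOH (0.60), but 6.35 with Padma 28 and 6.25 with EtOH on its second probe set.

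Of the lower ones, SLC5A9, a sodium-coupled sugar transporter, had 9.56 with Padma 28 and 10.38 with EtOH (-0.82). SLC44A5, a relative of SLC44A2, had 7.39 with Padma 28 and 8.13 with EtOH (-0.74), and 2 other probe sets above background on both arrays differed by -1.09 and -0.26. A further one, where only the EtOH value passed the limit, was lower by at least 1.78-fold. The choline transporter-like family was thus split, with SLC44A2 higher and SLC44A5 lower after Padma 28. SLC22A23 had 9.47 with Padma 28 and 10.17 with EtOH (-0.69), and 6.14 with Padma 28 and 6.29 with EtOH on its second probe set (-0.14).

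**Figure D3:**
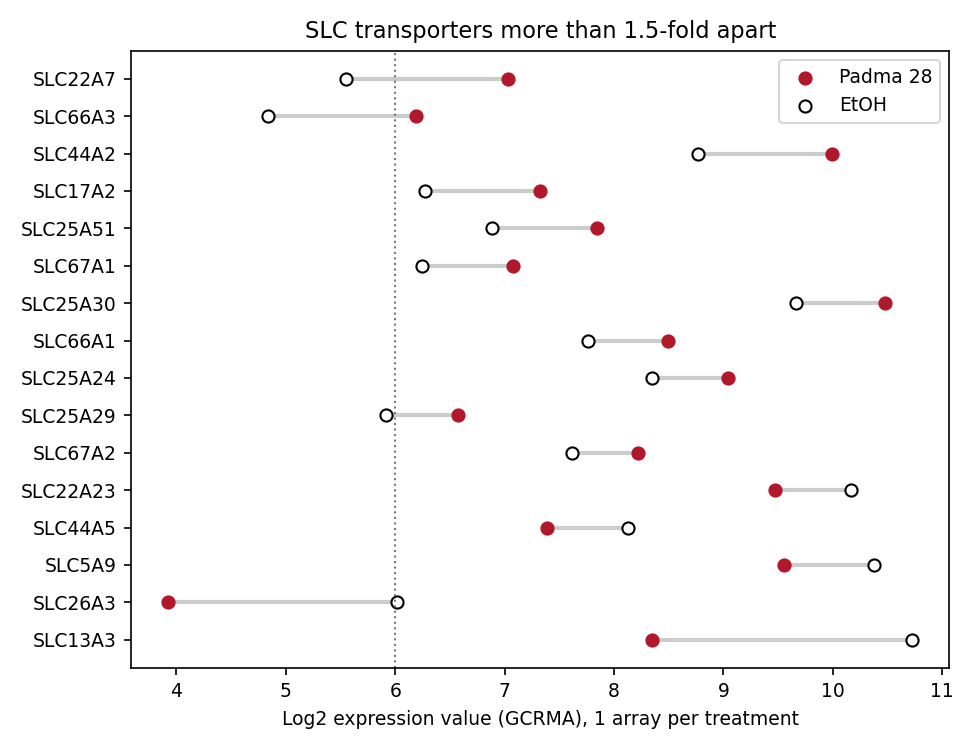
Log2 expression values (x axis) of the 16 transporters more than 1.5-fold apart, 1 row per gene, with Padma 28 as filled red points and EtOH as open points (1 array each). The dotted line marks the level of 6 used for selection. The rows run by difference, with SLC22A7 at 7.03 with Padma 28 and 5.55 with EtOH at the top and SLC13A3 at 8.35 and 10.73 at the bottom.

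The promoters of these genes were searched for 3 short motifs, the cores of response elements that stress and xenobiotic sensing factors are known to bind. Windows of 300 bases, 250 before and 50 after a transcription start, were taken from RefSeq annotation of GRCh38.p14, which gave 152 windows for 108 of the 131 genes. SLC13A3, SLC25A30 and SLC5A9 had none in the table used. The core of the antioxidant response element, TGACNNNGC on either strand, was in 26 of the 152 windows (17.1%) and in 13.3% of all 35116 windows of the table. The core of the xenobiotic response element, GCGTG, was in 87 windows (57.2%) and in 36.5% of all windows. The core of the amino acid response element, TGATGNAA, was in 2 windows (1.32%) and in 3.62% of all windows. The windows of the transporters also had more G and C, with a median of 67.0% against 58.7% over all windows, and its part in these shares was not tested. The 3 patterns were searched separately, so that matches may overlap.

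Of the 16 transporters past 1.5-fold, 10 higher and 3 lower ones had a window. The antioxidant core was in a window of 3 of the 10 (SLC66A1, SLC44A2 and SLC25A24) and of 0 of the 3, and the xenobiotic core was in a window of 5 of the 10 and of 0 of the 3. Counted by gene in the same way over the 108 transporters with a window, 26 (24.1%) had the antioxidant core and 69 (63.9%) the xenobiotic core. The windows printed at the end of the paragraph hold every antioxidant core found among the 16 genes, followed by the windows of SLC22A7 and SLC26A3, in which no motif was found. They were chosen after the values had been seen. Each is written 5′ to 3′ on the strand of the gene, with the matched cores in capitals. The window of SLC66A1 (chr1:19312076-19312375, plus strand) holds 3 antioxidant cores, starting 93, 32 and 21 bases before the start, and 1 xenobiotic core 72 bases before it. At least 3 antioxidant cores were found in 27 windows of the whole table (0.0769%) and in 1 window of the transporters (0.658%), this one. G and C made up 79.0% of it, against a median of 58.7% over all windows, and the part of this in the matches was not tested. The window of SLC44A2 (chr19:10625303-10625602, plus strand) holds 1 antioxidant core 8 bases before the start, and that of SLC25A24 (chr1:108200294-108200593, minus strand) holds 1 at 214 bases before it. Those of SLC22A7 (chr6:43298010-43298309, plus strand) and SLC26A3 (chr7:107803174-107803473, minus strand) hold none of the 3 patterns. A match of letters is a description and does not show binding.
SLC66A1: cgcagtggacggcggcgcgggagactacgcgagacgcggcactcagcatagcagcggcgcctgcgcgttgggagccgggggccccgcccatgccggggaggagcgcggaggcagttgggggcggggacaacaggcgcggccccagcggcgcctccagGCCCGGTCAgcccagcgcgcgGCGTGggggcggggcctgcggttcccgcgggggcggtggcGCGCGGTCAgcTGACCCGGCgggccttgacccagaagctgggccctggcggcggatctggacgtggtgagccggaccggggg
SLC44A2: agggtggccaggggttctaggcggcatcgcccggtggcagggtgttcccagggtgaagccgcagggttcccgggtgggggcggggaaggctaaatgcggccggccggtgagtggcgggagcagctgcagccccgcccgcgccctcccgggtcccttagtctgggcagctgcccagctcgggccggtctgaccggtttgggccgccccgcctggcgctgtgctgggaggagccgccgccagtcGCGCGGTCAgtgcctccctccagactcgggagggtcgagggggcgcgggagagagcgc
SLC25A24: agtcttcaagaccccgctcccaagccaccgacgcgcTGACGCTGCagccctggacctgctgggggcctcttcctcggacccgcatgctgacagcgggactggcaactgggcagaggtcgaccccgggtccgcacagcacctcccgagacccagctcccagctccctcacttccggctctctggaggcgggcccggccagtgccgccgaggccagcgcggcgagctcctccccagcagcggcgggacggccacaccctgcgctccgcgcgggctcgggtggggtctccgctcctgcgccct
SLC22A7: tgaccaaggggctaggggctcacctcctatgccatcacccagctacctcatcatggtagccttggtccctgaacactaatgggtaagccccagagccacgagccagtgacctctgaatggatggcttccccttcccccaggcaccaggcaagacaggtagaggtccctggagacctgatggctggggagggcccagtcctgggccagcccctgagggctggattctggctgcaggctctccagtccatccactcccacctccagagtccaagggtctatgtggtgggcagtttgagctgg
SLC26A3: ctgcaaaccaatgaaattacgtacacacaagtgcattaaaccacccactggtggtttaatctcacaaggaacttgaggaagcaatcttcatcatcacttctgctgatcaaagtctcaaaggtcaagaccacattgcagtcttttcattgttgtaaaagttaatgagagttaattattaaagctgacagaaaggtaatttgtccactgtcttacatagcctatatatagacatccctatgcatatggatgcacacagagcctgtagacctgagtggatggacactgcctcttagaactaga

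The exchangers and cotransporters of chloride, bicarbonate, sulfate and protons (SLC4, SLC9, SLC12 and SLC26) comprised 12 of the genes. Their median difference was -0.16, and 4 of 12 (33.3%) lay above 0, beside 59.8% of the 9333 genes at 6 or more on either array. Beside SLC26A3, none was past 1.5-fold, while 6.13% of those 9333 genes were higher and 2.78% lower by that much. SLC12A7, a cotransporter of potassium and chloride, had 9.90 with Padma 28 and 10.44 with EtOH (-0.53), and its relative SLC12A4 had 8.18 with Padma 28 and 8.48 with EtOH (-0.30). SLC4A11, a membrane transporter for protons and other ions, had 10.12 with Padma 28 and 10.49 with EtOH (-0.37), with -0.73 on its second probe set. The sulfate transporter SLC26A2 had 7.24 with Padma 28 and 7.57 with EtOH (-0.34). These 4 genes had lower values with Padma 28, and for the last 3 of them every further probe set above background was lower too. The sodium-potassium-chloride cotransporter SLC12A2 had 7.70 with Padma 28 and 7.51 with EtOH (0.19), but -0.26 on its second probe set, so its direction depended on the probe set. SLC26A11, a sulfate transporter, had 9.11 with Padma 28 and 8.97 with EtOH (0.14). SLC9D1 had 10.61 with Padma 28 and 10.49 with EtOH (0.12), with 0.24 and 0.38 on its others above background.

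The carriers of organic anions, cations and carboxylates (SLC13, SLC16, SLC22 and SLC47) held 9 genes with a median of -0.25. Above 0 lay 3 of them (33.3%), beside 59.8% of the 9333 genes at 6 or more on either array. Besides SLC22A7, SLC13A3 and SLC22A23, described above, SLC16A10, a transporter of aromatic amino acids, had 8.41 with Padma 28 and 8.84 with EtOH (-0.43). A dimmer probe set of SLC16A10 had 4.13 with Padma 28 and 5.47 with EtOH, at least 2.17-fold lower, whereas its other probe set above background on both arrays differed by -0.16. SLC22A9, a hepatic organic anion transporter (OAT7), had 6.47 with Padma 28 and 6.83 with EtOH (-0.36). SLC22A15 had 7.78 with Padma 28 and 7.48 with EtOH (0.30), and SLC47A1, which extrudes organic cations (MATE1), had 11.36 with Padma 28 and 11.17 with EtOH (0.19). The 2 liver organic anion transporters SLC22A7 and SLC22A9 thus differed in direction.

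**Figure D4:**
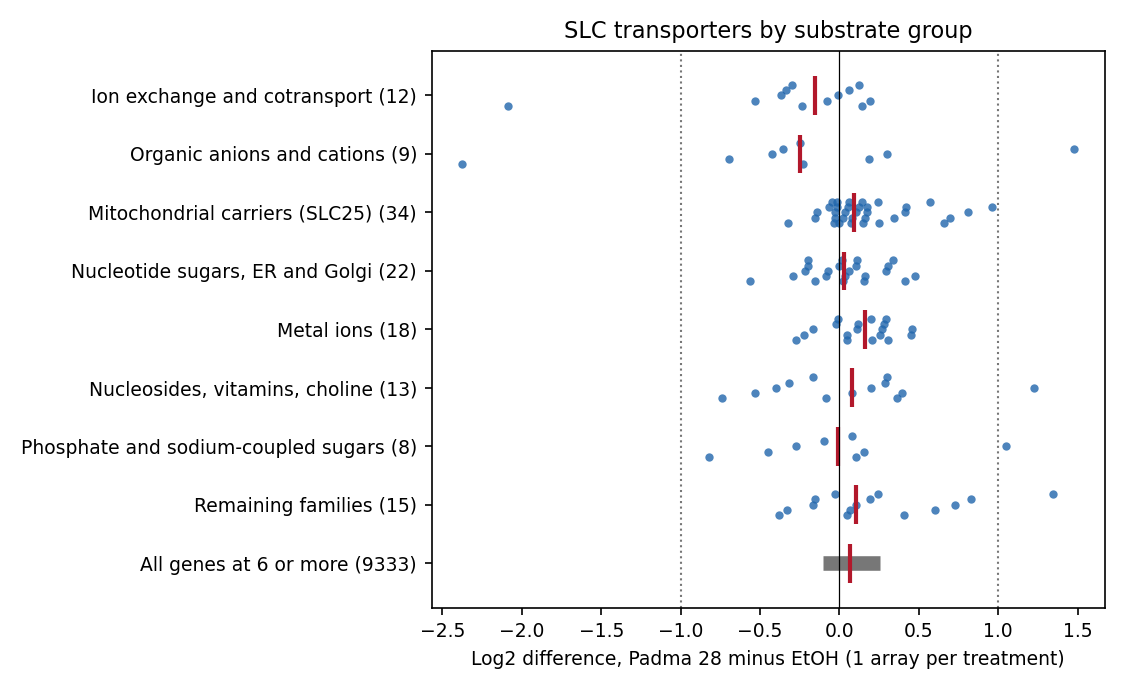
Log2 difference Padma 28 minus EtOH (x axis) of the 131 transporters in 8 role groups, 1 point per gene, with 1 array per treatment. Red bars are the group medians, the grey bar at the bottom is the interquartile range of the 9333 genes at 6 or more on either array (-0.10 to 0.26), and dotted lines mark 2-fold. The group medians run from -0.25 for organic ions to 0.16 for metals.

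The carriers of family SLC25, most of which exchange metabolites and nucleotides across the inner mitochondrial membrane, formed the largest group with 34 genes. Their median difference was 0.09, and 23 of 34 (67.6%) lay above 0. Over the 9333 genes at 6 or more on either array, the median was 0.07 and 59.8% lay above 0. After Padma 28, 4 of the 34 lay past 1.5-fold on the higher side and 0 on the lower side, and 0 of 34 were past 2-fold. Of the 9333 genes, 6.13% were higher and 2.78% lower by more than 1.5-fold, and 1.4% were higher and 0.664% lower by more than 2-fold. SLC25A51, the carrier of NAD+, had 7.84 with Padma 28 and 6.88 with EtOH (0.96), and its second probe set had 4.65 with Padma 28 and 3.81 with EtOH, at least 1.32-fold higher. SLC25A30 had 10.48 with Padma 28 and 9.67 with EtOH (0.81). SLC25A24, which exchanges ATP-Mg for phosphate, had 9.04 with Padma 28 and 8.34 with EtOH (0.69). SLC25A29, a carrier of basic amino acids, had 6.57 with Padma 28 and 5.91 with EtOH (0.66), while its second probe set was near the limit, with 4.28 with Padma 28 and 4.30 with EtOH. Each of the 4 had 1 probe set above background on both arrays, so that none of these differences was read a second time at that level.

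SLC25A46, an outer membrane protein involved in mitochondrial shape, had 9.80 with Padma 28 and 9.23 with EtOH (0.57), and 8.09 with Padma 28 and 7.24 with EtOH on its second probe set (0.85). SLC25A20, the carnitine and acylcarnitine carrier of fatty acid oxidation, had 7.87 with Padma 28 and 7.45 with EtOH (0.42). SLC25A15, which exchanges ornithine in the urea cycle, had 9.15 with Padma 28 and 8.74 with EtOH (0.41), with 0.23 on its second probe set. These carriers were higher with Padma 28 but within 1.5-fold on the brightest probe set. Carriers that nearly every mitochondrion uses differed little. The phosphate carrier SLC25A3 had 13.89 with Padma 28 and 13.87 with EtOH, and the ADP/ATP carrier SLC25A5 had 13.55 with Padma 28 and 13.59 with EtOH. SLC25A33, a carrier of pyrimidine nucleotides, had 12.13 with Padma 28 and 12.05 with EtOH. Of the 2 aspartate/glutamate carriers, SLC25A12 had 7.24 with Padma 28 and 7.56 with EtOH (-0.32). SLC25A13 had 10.88 with Padma 28 and 10.71 with EtOH (0.18), but -0.04 on its second probe set.

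**Figure D5:**
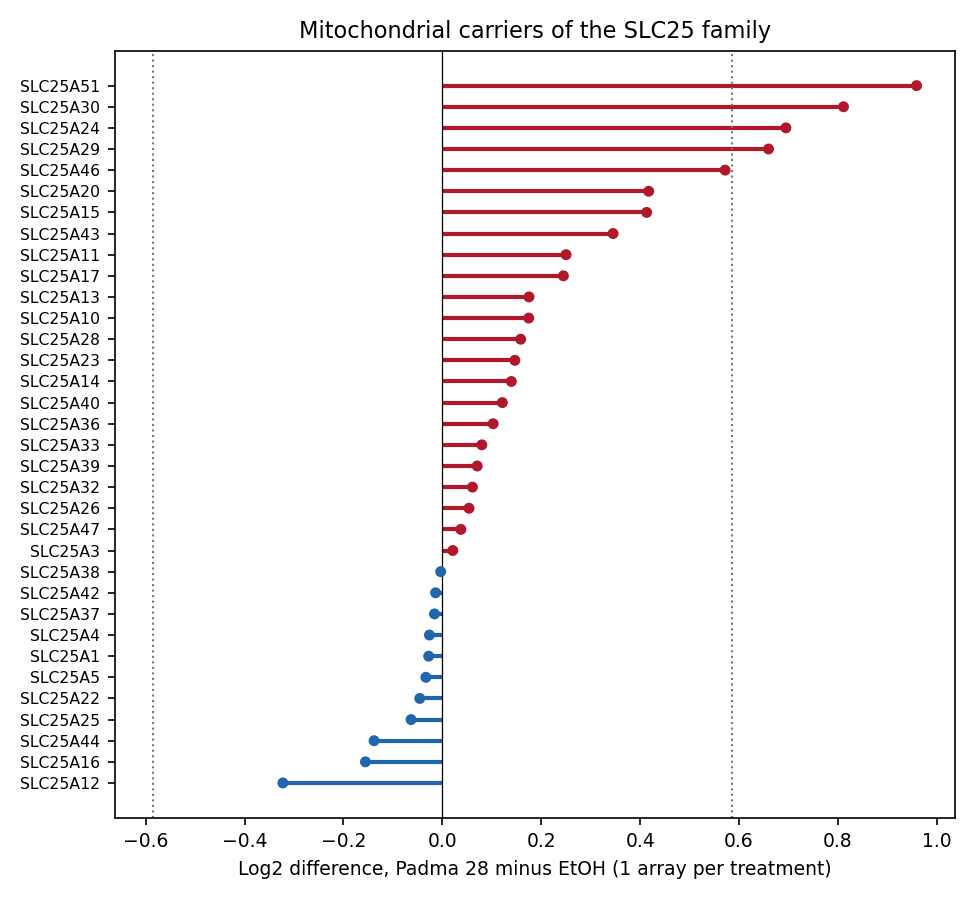
Log2 difference Padma 28 minus EtOH (x axis) of the 34 genes of family SLC25, ordered by difference, with 1 array per treatment and dotted lines at 1.5-fold. The 4 carriers past the right line are SLC25A51, SLC25A30, SLC25A24 and SLC25A29, none lies past the left line, and SLC25A12 is lowest at -0.32.

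The group of metal transporters, with SLC49A4 placed beside them, comprised 18 genes. Of these, 13 (72.2%) lay above 0, with a median of 0.16 and a range of -0.27 to 0.46. The share above 0 was 59.8% over the 9333 genes at 6 or more on either array. None was past 1.5-fold, while 6.13% of the 9333 genes were higher and 2.78% lower by that much. SLC24A1, an exchanger of sodium for calcium and potassium, had 8.73 with Padma 28 and 8.27 with EtOH (0.46, with 0.14 on its second probe set above background), and SLC8B1, the sodium-calcium exchanger of mitochondria, had 7.09 with Padma 28 and 6.64 with EtOH (0.45). Most genes of this group were ZIP transporters (family SLC39), which bring zinc into the cytosol. Of 11 ZIP genes 7 (63.6%) lay above 0, near the 59.8% over the 9333 genes, with a median of 0.11. SLC39A3 had 10.01 with Padma 28 and 9.71 with EtOH (0.31, with -0.02 on a probe set at the background limit), SLC39A10 had 10.23 with Padma 28 and 9.94 with EtOH (0.29), SLC39A6 had 11.64 with Padma 28 and 11.38 with EtOH (0.26, with 0.20, 0.18 and 0.002 on its others), and SLC39A4 had 11.88 with Padma 28 and 11.68 with EtOH (0.20). On the other side, SLC39A11 had 7.67 with Padma 28 and 7.94 with EtOH (-0.27). SLC39A13 had 8.001 with Padma 28 and 8.22 with EtOH (-0.22), but -0.07 on a second probe set of nearly the same brightness. SLC39A14, which also takes up iron, had 13.68 with Padma 28 and 13.84 with EtOH (-0.16, with -0.42 on its second probe set). The copper transporter SLC31A1 had 0.28 on its brightest probe set and -0.05 and -0.13 on its others.

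The carriers of nucleosides, vitamins and choline held 13 genes with a median of 0.08. Above 0 lay 7 of them (53.8%), beside 59.8% of the 9333 genes at 6 or more on either array. Besides SLC44A2 and SLC44A5, the largest differences were within 1.5-fold. The vitamin C transporter SLC23A2 had 10.30 with Padma 28 and 9.94 with EtOH (0.36), with 0.47 and 0.46 on its other probe sets. The nucleoside transporters SLC29A3 (9.62 with Padma 28, 9.23 with EtOH) and SLC29A1 (0.29, with 0.31 on its second probe set) were higher, while SLC29A4, which carries monoamines, had 7.58 with Padma 28 and 7.98 with EtOH (-0.40). Both thiamine transporters were lower: SLC19A3 had 7.72 with Padma 28 and 8.25 with EtOH (-0.53, with -0.40 on its second probe set), and SLC19A2 had 11.97 with Padma 28 and 12.29 with EtOH (-0.32). The folate transporter of the same family, SLC19A1, differed by 0.08, with -0.06 and 0.27 on its others above background. The proton-coupled folate transporter SLC46A1 differed by -0.17, with 0.12 and -0.57 on its others above background, and the riboflavin transporter SLC52A2 by 0.20. SLC44A1, a choline transporter, had 12.49 with Padma 28 and 12.58 with EtOH (-0.08), with differences of -0.12 to -0.91 on its 4 other probe sets above background, and SLC44A4 had 7.67 with Padma 28 and 7.38 with EtOH (0.30).

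The transporters of nucleotide sugars and other substrates in the endoplasmic reticulum and Golgi apparatus (22 genes, 18 of them of family SLC35) had a median of 0.03. None was past 1.5-fold, while 6.13% of the 9333 genes at 6 or more on either array were higher and 2.78% lower by that much. The lowest difference was that of SLC35A3, the carrier of UDP-N-acetylglucosamine, with 9.94 with Padma 28 and 10.50 with EtOH (-0.56), but -0.20 and -0.10 on its other probe sets. SLC33A1, the acetyl-CoA transporter, had 9.46 with Padma 28 and 9.75 with EtOH (-0.29), but 9.30 with Padma 28 and 9.18 with EtOH on its next brightest probe set (0.12), and -0.22 on another. SLC35B4, a carrier of UDP-xylose, had 8.76 with Padma 28 and 8.98 with EtOH (-0.21), but its other probe sets differed by -0.01 and 0.0043. On the higher side, SLC35B1, which exchanges ATP and ADP across the endoplasmic reticulum membrane, had 11.13 with Padma 28 and 10.65 with EtOH (0.48), and SLC35F2 had 6.72 with Padma 28 and 6.31 with EtOH (0.41). SLC35E3 had 11.05 with Padma 28 and 10.71 with EtOH (0.34), and the GDP-fucose carrier SLC35C1 had 7.60 with Padma 28 and 7.30 with EtOH (0.30). The glucose-6-phosphate carrier SLC37A4, needed for glucose release by the liver, had 9.15 with Padma 28 and 9.04 with EtOH (0.11), with 0.34 on its second probe set. SLC35D2 (12.30 with Padma 28, 12.28 with EtOH), SLC35D1 (11.62 with Padma 28, 11.46 with EtOH) and SLC35F5 (13.40 with Padma 28, 13.49 with EtOH) were close on both arrays on their brightest probe sets. On their dimmer ones above background, SLC35D2 differed by -0.20 on both, SLC35D1 by 0.10 and -0.17, and SLC35F5 by -0.02 and -0.53. For the UDP-galactose carrier SLC35A2, 2 probe sets gave 0.04 and -0.03, whereas a dim one had 5.02 with Padma 28 and 3.88 with EtOH, at least 1.71-fold higher. The study lists SLC35A2 in several pathways as more than 2-fold higher on these arrays, without naming the probe set. The 2 brighter probe sets did not show such a difference.

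The phosphate and sodium-sugar carriers held 8 genes with a median of -0.01, of which 4 lay above 0. Besides SLC17A2 and SLC5A9, none was past 1.5-fold. SLC5A6, the sodium-dependent multivitamin transporter for biotin and pantothenate, had 11.96 with Padma 28 and 12.40 with EtOH (-0.45). SLC17A9, the vesicular nucleotide transporter, had 11.62 with Padma 28 and 11.89 with EtOH (-0.27). SLC20A1 (13.01 with Padma 28, 12.90 with EtOH) and SLC20A2 (8.23 with Padma 28, 8.32 with EtOH), phosphate transporters of most cells, and the inositol transporter SLC5A3 (10.15 with Padma 28, 10.07 with EtOH) differed by no more than 0.11 on their brightest probe sets. The dimmer ones of SLC20A2 differed by -0.02 and -0.35, and that of SLC5A3 by -0.04. SLC17A5, the lysosomal sialic acid exporter, had 9.49 with Padma 28 and 9.34 with EtOH (0.16), but 7.93 with Padma 28 and 7.15 with EtOH on its second probe set (0.78).

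The remaining 15 genes had a median of 0.11, and 10 of them (66.7%) lay above 0, beside 59.8% of the 9333 genes at 6 or more on either array. Besides SLC66A3, SLC67A1, SLC66A1 and SLC67A2, the sugar transporter SLC50A1 had 9.01 with Padma 28 and 8.61 with EtOH (0.41). SLC15A4, a lysosomal carrier of histidine and peptides, had 9.26 with Padma 28 and 9.59 with EtOH (-0.33, with -0.20 on its second probe set), and SLC71A1 had 11.56 with Padma 28 and 11.94 with EtOH (-0.38), while its relative SLC71A2 had 10.49 with Padma 28 and 10.42 with EtOH. Within family SLC66, SLC66A2 had 9.77 with Padma 28 and 9.94 with EtOH (-0.17), unlike its higher relatives SLC66A1 and SLC66A3. SLC60A2 differed by -0.15, but by 0.03 on its second probe set.

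Where a gene had several probe sets, the gap between them gave the only measure of spread, one that covers probe behaviour and not the cultures. Among the 63 transporters with 2 probe sets above background on both arrays, the median gap between the differences of the brightest and the next brightest was 0.18, and the median over 4912 genes was 0.14. Of the 131 transporters, 46 had a difference within 0.14 of 0 and 85 lay past it. Among the 63, the brightest probe set lay past 0.14 in 41, and the next brightest had the same sign in 35 of these.

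Carriers depend on partner proteins, and a list of 20 partner genes (chaperones, scaffolds, kinases, sodium pump subunits and carbonic anhydrases) was looked at beside them. Of these, 12 reached 6 on either array, with a median of -0.06, and past 2-fold lay 1 lower and 0 higher genes. Over the 9333 genes at that level, 0.664% were lower and 1.4% higher by that much. PDZK1, a scaffold that holds carriers at the apical membrane, had 8.94 with Padma 28 and 9.95 with EtOH (-1.004, just past the threshold). The study also names PDZK1 among the molecules of its networks. The related scaffolds NHERF1 (11.98 with Padma 28, 12.05 with EtOH) and NHERF2 (4.88 with Padma 28, 5.64 with EtOH) differed by -0.07 and -0.75. BSG, a chaperone of monocarboxylate transporters, had 13.05 with Padma 28 and 13.39 with EtOH (-0.34). MPC1, of the mitochondrial pyruvate carrier, had 10.97 with Padma 28 and 10.65 with EtOH (0.32), and MPC2 differed by 0.19.

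As a check of the cells, all 7 hepatic markers examined were well above background on both arrays, from ALB with 16.52 with Padma 28 and 16.62 with EtOH to FGB, which differed by -0.55. Of 6 markers of other cells, PTPRC, CD3E, COL3A1 and VWF were below background on both arrays, and COL1A1 (6.71 with Padma 28, 6.74 with EtOH) and PECAM1 (6.81 with Padma 28, 6.49 with EtOH) were not. The hepatic markers were all lower with Padma 28, by differences of -0.05 to -0.55, and their part in the transporters' values was not tested.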

How the data were processed

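The authors hybridised RNA pooled from 3 cultures per treatment to 1 array each, processed both arrays with GCRMA and deposited log2 expression values of 54675 probe sets, normalized between the arrays by quantiles. Versions given in the submitters' processing notes were 2.28.0 for GCRMA and 2.15.1 for R. The array medians were 3.08 (Padma 28) and 3.13 (EtOH), and the number of arrays limits the precision. Genes were named from the platform annotation, in which 41097 probe sets had 1 gene, 1801 several and 11777 none listed, with symbols updated through RefSeq. A gene was represented by its own probe set with the highest mean. Differences are Padma 28 minus EtOH. No test was run. A gene below background on 1 array was given as at least N-fold, against the limit of that array (2 log2 units above the most frequent value).

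The transporters, role groups and partner genes were chosen with earlier results of these data known. Named are the genes past 2-fold, per role group the 4 largest increases, the 4 largest decreases and the 3 highest mean levels, the genes at the edge of the level rule and the partner genes. Others past 1.5-fold and single family members were named after their values were seen, and some genes within the rule are given only in counts. Alternatives concerned the probe set chosen, the level rule, an added constant, centring, normalization and symbols. The scripts (Python 3.11.15, numpy 2.4.6, pandas 2.3.3, statsmodels 0.14.6, matplotlib 3.10.9) were tested on simulated data.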

Additional observations from a re-analysis of the deposited data

How the results depend on the processing

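The median difference of the transporters, 0.06, ranged from -0.0033 to 0.09 over the 13 alternatives. The count of 4 transporters more than 2-fold higher was 2 when each gene was given the median of its probe sets. It was also 2 of the 127 transporters left with a level of 6 required on both arrays. It was 2 with 16 added to both linear values and 1 with 64 added. It was 3 of the 105 transporters left without _x_at and _s_at probe sets, 3 of the 121 left with a level of 7 on either array and 3 with quantile normalization repeated. The count of 2 lower was 1 with a level of 7 on either array, 1 with 6 on both arrays and 1 with 64 added. Under the stricter level rules and without _x_at and _s_at probe sets, the genes missing from these counts had left the selection. The count of lower ones rose to 3, with SLC44A5 added, on the probe set with the largest absolute difference among those at 6 or more. SLC13A3 (-2.41 to -1.16) and SLC44A2 (1.12 to 1.30) stayed past 2-fold in 13 of 13 alternatives, SLC26A3 (-2.10 to -0.70) in 10 of 11, SLC22A7 (0.28 to 1.504) in 10 of 12, SLC17A2 (0.66 to 1.07) in 9 of 12 and SLC66A3 in 8 of 11. SLC66A3 was reversed, at -0.0089, with the median over its probe sets, since 2 of its 3 lie below background. The single partner gene past 2-fold, PDZK1, was within it after centring on the median of all probe sets (-0.98), and the count was then 0, as it was with 16 added (0) and with 64 added (0). Of 948 values of 75 named transporters under the alternatives, 897 moved by no more than 0.14, and 15, of 11 transporters, had the other sign. Where the reported difference was past 0.14, this concerned 7 values of 6 transporters, SLC66A3, SLC25A29 (-0.02 with the median over its probe sets), SLC39A3 (-0.02 likewise), SLC12A2 (-0.03 likewise, and -0.26 on the probe set with the largest difference), SLC35D1 (-0.17 on that probe set) and SLC33A1 (0.12 with the _x_at and _s_at probe sets left out). No paired analysis was possible because each treatment had 1 array, and none could be left out. Signal over background limits what can be said of dim genes.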

Other observations

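Of the 250 SLC genes of these families, 119 stayed below 6 on both arrays on their brightest probe set of their own. Of these, 100 were below the background limit on both. Among the 119, only SLC26A6, an anion exchanger, had measured values more than 2-fold apart, with 4.98 with Padma 28 and 3.81 with EtOH on its own probe set. Since the value with EtOH was below background, this probe set was at least 1.66-fold higher, which does not reach 2-fold. A far brighter probe set that the annotation assigns to both SLC26A6 and MIR6824 went the other way. It had 10.18 with Padma 28 and 10.78 with EtOH (-0.60), more than 1.5-fold lower. The selection rule read SLC26A6 by its dim own probe set only, so this brighter signal is not in the counts of the ion exchangers. The direction of SLC26A6 thus depended on the probe set.

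Further probe sets that the annotation shares between a transporter and another gene were not counted in the report. The one shared by SLC23A3 and NHEJ1 had 8.37 with Padma 28 and 7.83 with EtOH (0.54), while that of SLC35F6 and CENPA had 10.51 on both arrays and that of SLC4A5 and DCTN1 had 10.01 with Padma 28 and 10.10 with EtOH.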
